A study of Tupaia belangeri with 6 samples.

Results

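The genes described here are the dopamine receptors and the main genes of monoamine signalling and metabolism in the prefrontal cortex (PFC) of the tree shrew. They were chosen by name: DRD1 and DRD5 (D1-like receptors), DRD2, DRD3 and DRD4 (D2-like receptors), PPP1R1B (encoding DARPP-32), MAOA and MAOB (monoamine oxidases) and TH (tyrosine hydroxylase). Of these 9 genes, 6 were listed under their names, among 95863 loci of which 22608 carried a gene name. DRD2, PPP1R1B and MAOB were not among the listed gene names. Predicted gene-like copies, which the annotation marks with "li", were left out.

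RNA-seq libraries had been made from PFC tissue of adult Chinese tree shrews (Tupaia belangeri), with 1 library from each of 3 females (animals 1, 3 and 4) and 3 males (animals 1, 4 and 5). The labels gave no treatment or genotype for the animals, which came from a laboratory animal centre. Poly(A) RNA was selected from total RNA of bulk tissue and sequenced in paired ends. According to the sample overview of the study, each male was older than each female, so sex and age cannot be told apart in these libraries. The protocol named no method that keeps the strand of the RNA, so reads of overlapping genes cannot be told apart.

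Dopamine reaches the cortex in axons of midbrain neurons, where tyrosine hydroxylase carries out the rate-limiting step of catecholamine synthesis. D1-like receptors raise cyclic AMP through stimulatory G proteins, and D2-like receptors lower it through inhibitory G proteins. DARPP-32 is a phosphorylation-regulated inhibitor of protein phosphatase 1 that acts downstream of D1-like receptors and is abundant in striatal projection neurons. Monoamine oxidases A and B sit on the outer mitochondrial membrane and oxidize dopamine, noradrenaline and serotonin. TH transcripts are found mainly in the cell bodies of midbrain and brainstem neurons, and most tyrosine hydroxylase protein in the cortex lies in incoming axons.

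Levels are in TPM, a unit of transcript abundance that is scaled to a fixed total per library and corrected for transcript length, so that genes can be set side by side. The TPM of all loci summed to 950532 to 971492 per library, and 30342 to 33114 loci were above 0. Loci without a strand held 2.30% to 5.16% of this sum in 5 libraries and 7.88% in male 5. Read counts were not among the values analysed, so depth is given below as mean read depth over a locus (coverage). A value of 0 was read with care, since GAPDH, a glycolytic gene used by every cell, was also listed at 0 in all 6 libraries. The 4 listed markers of cortical excitatory neurons (out of 6) summed to 2294 to 4104 TPM, and the 5 listed astrocyte markers (out of 7) to 1404 to 2184 TPM. Markers of both cell types were thus present in every library. The share of cortex in each piece of tissue was not tested.

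The 6 listed genes differed widely in level. MAOA had the highest median, 59.0 TPM, followed by DRD1 at 4.43 TPM, TH at 0.936 TPM, DRD3 at 0.439 TPM, DRD4 at 0.0891 TPM and DRD5 at 0 TPM. MAOA was above DRD1 in 6 of 6 libraries and their ranges did not overlap. DRD1 was above TH in 6 of 6 libraries, although the ranges over libraries overlapped. Lower in the order the neighbours were not separated: TH was above DRD3 in 3 libraries and equal to it at 0 in 1, and DRD3 was above DRD4 in 4 of 6 libraries. The median of DRD3 was 0.0530 TPM without female 1, female 3 or male 1, below that of DRD4, and 0.826 TPM without any 1 of the others. DRD4 was above DRD5 in 5 libraries and equal to it in the other.

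**Figure D1:**
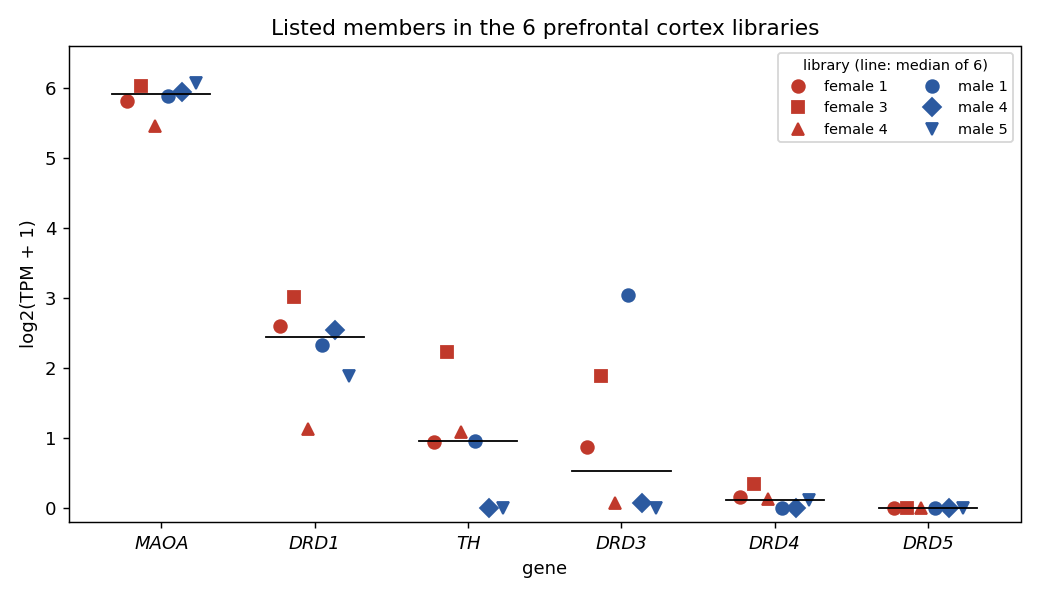
Level of the 6 listed genes in each of the 6 PFC libraries (vertical axis: log2(TPM + 1); red: females, blue: males; a symbol shape marks an animal number; black line: median of 6). MAOA formed a tight group between 42.7 and 66.4 TPM, DRD1 lay between 1.20 and 7.06 TPM, and DRD3 spread from 0 to 7.24 TPM.

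DRD1, the most widely expressed dopamine receptor of the mammalian forebrain, was the receptor with the highest median. It lies on the minus strand of chromosome 18 (58715336 to 58877195, genome TS_3.0), in a locus that spans 161860 bp. Its level was 5.05 TPM in female 1, 7.06 in female 3 and 1.20 in female 4, and 4.02 in male 1, 4.83 in male 4 and 2.70 in male 5. Female 4 was the lowest and female 3 the highest of the 6 libraries, so the male values lay within the female range. The mean was 4.14 ± 2.03 TPM (SD, n = 6), and the highest value was 5.88 times the lowest. Coverage ran from 1.67 to 8.10 reads per base, and the median of DRD1 was above that of 43.8% of the 16237 named loci with a strand that were above 0 TPM in at least 1 library. Inside the locus lay 5 unnamed loci without a strand, which reached 8.78 TPM in single libraries. Whether these records share reads with DRD1 was not tested, nor whether all transcripts of this long locus are those of DRD1. The levels given for DRD1 are those of the locus under this name.

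DRD5, the other D1-like receptor, lies on the plus strand of chromosome 8 (43343734 to 43345161). This short locus of 1428 bp was listed at 0 TPM in all 6 libraries. Because GAPDH was listed at 0 as well, this value is not read as absence of the transcript. The D1-like sum therefore equals the level of DRD1.

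DRD3, a D2-like receptor best known from the limbic striatum, varied the most. It lies on the plus strand of chromosome 1 (28999724 to 29052397, 52674 bp). DRD3 was listed at 0.826 TPM in female 1, 2.68 in female 3 and 0.0530 in female 4, and at 7.24 in male 1, 0.0492 in male 4 and 0 in male 5. Female 1, female 3 and male 1 were high and the other 3 libraries were near 0, a division that ran through both sexes. On the log2(TPM + 1) scale the SD over 6 libraries was 1.24, and 3.62% of the 28740 genes tested had a larger one. Coverage reached 8.11 reads per base in male 1.

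The DRD3 locus held 5 further loci within its span. DRD3li1, a gene-like copy on the opposite strand, reached 0.745 TPM in female 1. The other 4 had neither strand nor name, and 3 of them were highest in male 1, at 5.14, 9.24 and 5.87 TPM, the library with the highest DRD3. The remaining one was listed at 0 in male 1 and reached 2.90 TPM in male 5, where DRD3 was at 0. Whether these records share transcripts with DRD3 was not tested.

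DRD4, a D2-like receptor associated with cortical and retinal expression, lies on the minus strand of chromosome 7 (60963953 to 60969830, 5878 bp). It was listed at 0.113 TPM in female 1, 0.272 in female 3 and 0.0909 in female 4, and at 0.00691 in male 1, 0 in male 4 and 0.0873 in male 5. All 3 females were above all 3 males, but coverage was at most 0.301 reads per base. DRD4 did not reach 0.1 TPM in 3 libraries and was left out of the test across genes. The end of its locus overlapped TMEM80 on the other strand, which was listed at 73.4 to 110.3 TPM.

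DRD2, the D2-like receptor of striatal indirect-pathway neurons, had no entry of its own name, so the sum of D2-like receptors holds DRD3 and DRD4 alone. This sum was 0.939 TPM in female 1, 2.96 in female 3, 0.144 in female 4, 7.24 in male 1, 0.0492 in male 4 and 0.0873 in male 5. In 5 of the 6 libraries it was below the level of DRD1, and male 1 was the exception.

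MAOA, which prefers serotonin and noradrenaline as substrates, was the highest of the listed genes and, of the 4 that were tested, the one with the smallest spread. It lies on the plus strand of the X chromosome (32274864 to 32347169, 72306 bp). Its level was 55.3 TPM in female 1, 64.2 in female 3 and 42.7 in female 4, and 57.8 in male 1, 60.2 in male 4 and 66.4 in male 5. Female 4 was the lowest library and male 5 the highest, with 1.55-fold between them. The mean was 57.8 ± 8.40 TPM (SD, n = 6), the median was above that of 83.6% of named loci, and coverage was 65.6 to 82.4 reads per base. On the log2(TPM + 1) scale its SD of 0.223 was smaller than that of 87.6% of the genes tested.

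TH lies on the minus strand of chromosome 17 (46681137 to 46689752, 8616 bp). It was listed at 0.917 TPM in female 1, 3.71 in female 3 and 1.12 in female 4, and at 0.954 in male 1 and 0 in male 4 and male 5. Female 3 stood above the other 5 libraries, and the sexes overlapped through male 1. Coverage was at most 4.70 reads per base. In bulk tissue, fewer cells of a type and less RNA per cell cannot be told apart, for TH as for the other genes here.

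Markers of the neurons that make monoamines were compared with TH. All 9 markers of midbrain dopamine neurons were listed, and their sum was 7.01 to 32.1 TPM. Of these, SLC6A3 (the dopamine transporter), LMX1B and FOXA2 were at 0 in all 6 libraries, whereas EN1 (0.215 to 0.669 TPM), DDC (0.351 to 1.16 TPM) and ALDH1A1 (3.22 to 7.50 TPM) were above 0 in all 6. SLC18A2 (the vesicular monoamine transporter) was above 0 only in female 1, at 1.62 TPM. PITX3, a transcription factor of these neurons, was at 2.64 and 2.47 TPM in females 1 and 3 and between 0 and 0.162 TPM elsewhere. NR4A2, which is also expressed in cortical neurons, was 21.8, 9.30 and 3.69 TPM in females 1, 3 and 4 and 6.34, 1.85 and 1.44 TPM in males 1, 4 and 5. All 7 markers of noradrenergic and serotonergic neurons were listed, with a sum of 0.614 to 5.35 TPM. The part of such neurons in the TH values was not tested.

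Markers of striatal projection neurons were compared with the receptors, because DRD1 and DRD3 are expressed in the striatum. Of 13 such markers, 8 were listed and none of these was at 0 in all libraries. Their summed level was 690.1 TPM in female 1, 751.9 in female 3 and 352.7 in female 4, and 880.2 in male 1, 399.9 in male 4 and 442.8 in male 5. The 3 libraries in which DRD3 was listed above 0.5 TPM thus had the 3 highest sums.

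Of the 8 listed markers, 5 (RGS9, TAC1, PDE10A, PENK and ADCY5) were higher in each of these 3 libraries than in each of the others, and 3 (GNAL, RXRG and FOXP1) were not. The share of all genes divided in this way was not determined, so whether 5 of 8 is unusual cannot be said. Between these libraries and the others the ratio was widest for RGS9, a regulator of G protein signalling enriched in striatum. It was 48.0, 43.7 and 54.6 TPM in female 1, female 3 and male 1, and 1.52, 0.355 and 0.392 TPM in female 4, male 4 and male 5. TAC1, the substance P precursor of striatal direct-pathway neurons, was 89.2, 78.3 and 231.6 TPM in the first 3 of these libraries and 26, 22.3 and 10.6 TPM in the others. PDE10A, a striatum-enriched phosphodiesterase, was 51.7 to 67.9 TPM in the former and 21.2 to 23.1 TPM in the latter. GNAL, a stimulatory G protein subunit, was highest in male 5, at 179.8 TPM, and 107.1 TPM in female 1. FOXP1, a transcription factor also found in cortex, was 70.7 TPM in male 1 and 79.6 TPM in male 5, and RXRG, a retinoid receptor, was 11.2 TPM in male 1 and 11.3 TPM in female 4. This division was noticed after the values were seen, and its part in the DRD3 and DRD1 levels was not tested.

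DRD1 followed this division less clearly. Female 4, with low RGS9, had the lowest DRD1, at 1.20 TPM, but male 4, with the lowest RGS9, had 4.83 TPM of DRD1, more than male 1. Over the 6 libraries, which share these differences in marker level, Pearson's r of log2(TPM + 1) between pairs of the 5 genes above 0 ran from −0.12 to 0.78. It was 0.78 between TH and DRD4, 0.70 between MAOA and DRD1, 0.56 between TH and DRD3 and 0.47 between DRD1 and DRD3. DRD1 had an r of 0.33 with both TH and DRD4, MAOA had 0.21 with DRD3, 0.16 with DRD4 and −0.12 with TH, and DRD3 had 0.099 with DRD4.

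**Figure D2:**
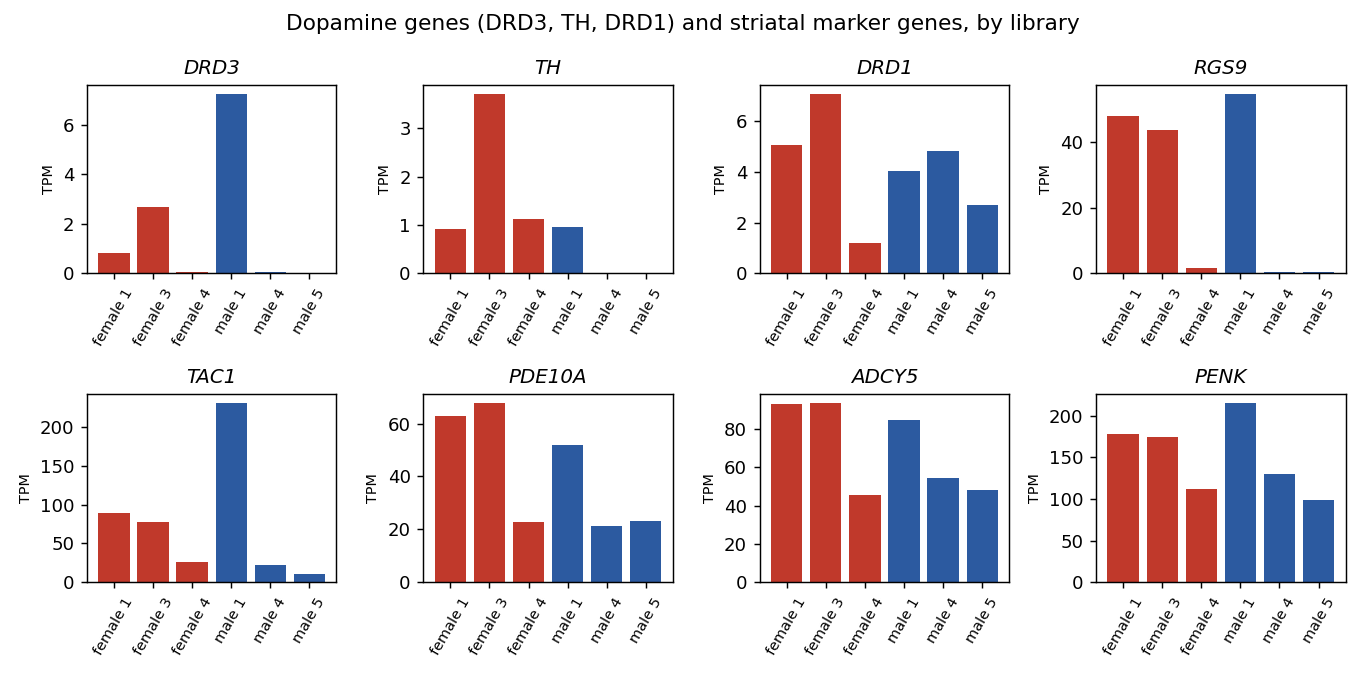
TPM of DRD3, TH and DRD1 and of 5 markers of striatal projection neurons in each library (bars: 1 library each, red: females, blue: males; each panel has its own vertical axis starting at 0). DRD3 and RGS9 were high in female 1, female 3 and male 1, whereas DRD1 was 4.83 TPM in male 4, where RGS9 was 0.355 TPM.

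For MAOA and DRD1, the genes with a median of at least 1 TPM, the most similar patterns were sought among 10781 named genes by Pearson's r of log2(TPM + 1) over the 6 libraries. For DRD1 these were MSI2 (r = 0.998, 11.4 to 33.8 TPM), KCNN3 (0.994) and BIRC2 (0.991). For MAOA they were ZBTB25 (r = 0.999, 0.907 to 2.37 TPM), MARF1 (0.994) and ITSN1 (0.992). With only 6 points such values were common, since 159 genes had an r above 0.9 with DRD1 and 496 with MAOA.

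Of the 3 genes without an entry of their own, each has a neighbour that was listed. In RefSeq positions of another assembly (TupChi_1.0), where 8 of the 9 symbols were found (all but DRD4), MAOB lies next to MAOA, DRD2 next to ANKK1, and PPP1R1B between NEUROD2 and PGAP3. The nearest locus with a strand and at least 1 TPM in every library was therefore read beside MAOA, ANKK1 and NEUROD2. These loci were looked up after the other values were seen, carry no name of the missing genes, and are not counted as such.

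Beside MAOA, 3942 bp away and on the opposite strand, lay an unnamed locus of 170953 bp (X chromosome, 32351112 to 32522064). Its level was 32.5, 30.7 and 19.1 TPM in females 1, 3 and 4 and 31.1, 25.0 and 22.9 TPM in males 1, 4 and 5. In each library this was lower than MAOA, and female 4 was again the lowest.

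Beside ANKK1 lay an unnamed locus on the plus strand of chromosome 9 (26081981 to 26150575, 68595 bp). It was at 37.1, 25.2 and 8.72 TPM in females 1, 3 and 4 and 35.4, 24.7 and 12.7 TPM in males 1, 4 and 5. Its highest values were in female 1 and male 1 and its lowest in female 4 and male 5. These levels exceeded those of DRD1, DRD3 and DRD4 in the same library.

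The nearest such locus to NEUROD2 carried the name PNMT, the enzyme that makes adrenaline from noradrenaline (minus strand of chromosome 15, 67297699 to 67346593, 48895 bp). It was at 165.1, 121.5 and 70.0 TPM in females 1, 3 and 4 and 229.7, 71.7 and 88.7 TPM in males 1, 4 and 5. The 3 libraries high in RGS9 were also the 3 highest here. It was the only named locus between PGAP3 and NEUROD2, where RefSeq places PPP1R1B, STARD3, TCAP and PNMT, and neither STARD3 nor TCAP was listed. The level is therefore given as that of the locus and not as that of PNMT.

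**Figure D3:**
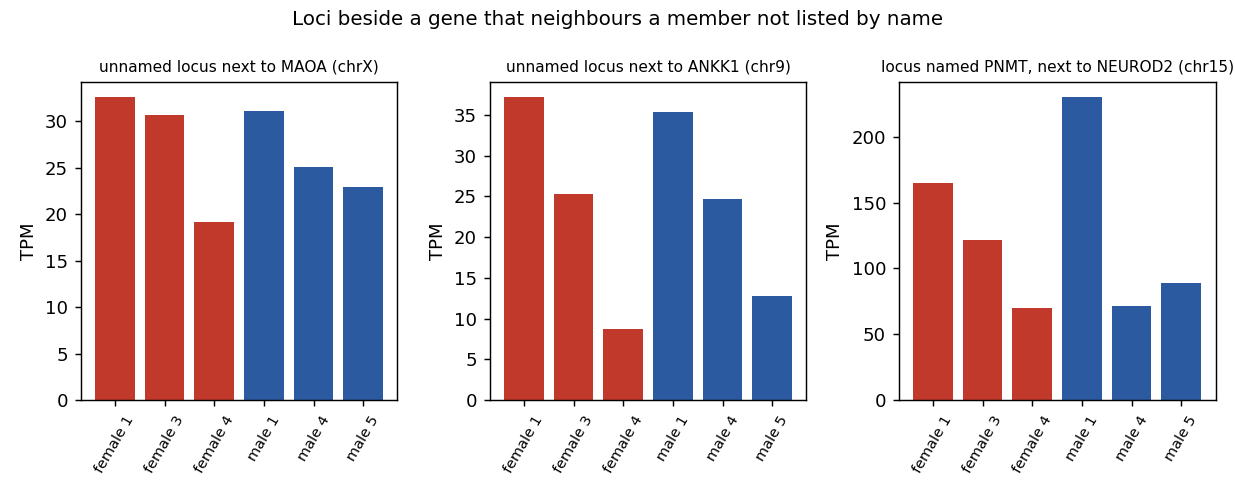
TPM of 3 loci beside MAOA, ANKK1 and NEUROD2 in each library (bars: 1 library each, red: females, blue: males; vertical axes start at 0 and differ between panels; the chromosome stands in brackets). The locus named PNMT was 121.5 TPM or more in female 1, female 3 and male 1 and at most 88.7 TPM in the others.

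The study compared females with males by DESeq2 on read counts, at an adjusted p of 0.1. Here the sexes were compared with limma on log2(TPM + 1), with a Benjamini-Hochberg threshold of 0.1 within autosomes and within the X chromosome. The study called a larger share of both autosomal and X-linked genes, so a gene that did not pass here may have passed there. Of the 6 listed genes, 4 reached 0.1 TPM in at least 3 libraries and were tested, and 0 passed. Over all genes tested, 0.0143% of 27996 autosomal and 0.134% of 744 X-linked genes passed. At an unadjusted p below 0.05 the count was also 0 of 4, where 5.04% of autosomal and 3.76% of X-linked genes passed.

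MAOA was 54.1 ± 10.8 TPM in females and 61.5 ± 4.39 TPM in males (SD, n = 3 each). The difference, female minus male on the log2(TPM + 1) scale, was −0.20 (SE 0.193, adjusted p = 0.967 by limma), less than the spread between animals. It was −0.042 without female 4 and −0.33 without female 3. DRD1 was 4.44 ± 2.98 TPM in females and 3.85 ± 1.07 TPM in males (SD, n = 3 each), with a difference of −0.0044 (SE 0.574, adjusted p = 1 by limma). This sign is opposite to that of the means in TPM, as female 4 weighs more on the log scale, and without female 4 the difference was 0.55.

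TH had the largest difference of the 4, at 1.10 (SE 0.517, unadjusted p = 0.0643, adjusted p = 0.925 by limma), with 2 males at 0 and the third male within the female range. Without female 3 it was 0.69. The unadjusted p of TH (limma) fell below 0.05 with rescaling over stranded loci (0.0404), without female 1 (0.0487) and without male 1 (0.0259). In none of the other alternatives did it do so. DRD3 differed by −0.096 (SE 0.872, adjusted p = 0.997 by limma). Its sign rested on the setting, being 0.62 with a pseudocount of 0.1 and 0.34 without female 4.

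With 3 animals against 3, the exact two-sided permutation test of a single gene cannot give a p below 0.1. This exact test gave p = 0.4 for MAOA, 0.8 for DRD1, 0.2 for TH, 1 for DRD3 and 0.1 for DRD4, the smallest possible value. The separation of the sexes for DRD4 rests on values of at most 0.272 TPM, and 9.81% of the autosomal genes tested had sexes that did not overlap, 4.84% with females higher. The exact permutation test gave p = 0.8 for the D1-like sum, 1 for the sum of DRD3 and DRD4, and 0.4 for the MAO sum, which holds MAOA alone.

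Markers of other cell types were read for the same comparison. The 3 listed blood markers (out of 5) summed to 1275 to 2542 TPM over the females and 62.7 to 101.2 TPM over the males, and the 2 globins HBQ1 and HBG passed the threshold (adjusted p = 0.00977 for each by limma). Neither passed with limma without the trend (adjusted p = 0.215 for each) or with the strandless share as covariate (0.166 and 0.131). Their differences were 4.52 and 4.35 in the main fit, the same without the trend, and 4.62 and 4.69 with the covariate. The 3 listed oligodendrocyte markers (out of 6) summed to 347.6 to 481.6 TPM over the females and 80.7 to 235.6 TPM over the males, but none of the 3 passed the adjusted threshold by limma. MAG was 246.6 to 345.5 TPM in the females and 63.4 to 145.6 TPM in the males (difference 1.68, SE 0.297, unadjusted p = 0.000383, adjusted p = 0.893 by limma). MOG had a difference of 1.64 (SE 0.606, unadjusted p = 0.0252, adjusted p = 0.925 by limma) with sexes that overlapped. The sexes overlapped for MBP as well, which was named on a locus of only 893 bp. Interneuron markers (6 of 6 listed) summed to 1083 to 1328 TPM, microglial markers (6 of 6) to 162.4 to 303.9 TPM, and endothelial and choroid plexus markers (5 of 5) to 311.3 to 468.8 TPM over all libraries. Most of the endothelial sum was PECAM1, named on a locus of 356026 bp, at 252.2 to 409.6 TPM with sexes that overlapped. Whether all transcripts of so long a locus are those of PECAM1 was not tested. CLDN5 was 33.5 to 60.7 TPM in the females and 23.2 to 28.9 TPM in the males (difference 0.83, SE 0.243, unadjusted p = 0.0085, adjusted p = 0.925 by limma), and FLT1 27.1 to 31.7 and 23.2 to 26.8 TPM. Of the astrocyte and excitatory neuron markers, ALDH1L1 had a difference of 1.09 (SE 0.451, unadjusted p = 0.0406, adjusted p = 0.925 by limma) and NEUROD6 one of −0.43 (SE 0.176, unadjusted p = 0.0379, adjusted p = 0.925 by limma). The part of these markers in the sex differences given here was not tested.

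The unnamed locus beside MAOA differed by 0.032 (SE 0.251, adjusted p = 0.984 by limma) between the sexes and the one beside ANKK1 by −0.13 (SE 0.526, adjusted p = 0.986 by limma). For the locus named PNMT the difference was −0.020 (SE 0.453, adjusted p = 0.999 by limma). None of these exceeded the spread between animals.

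A wider list of 78 genes of monoamine synthesis, transport, breakdown and dopamine receptor signalling was examined in the same way. Of these, 61 were listed, 6 of them at 0 in all libraries (SLC6A3, SLC18A1, AKR1B1, AKR1A1, GNAI1 and PRKAR2B), and 50 were tested. None passed the adjusted threshold by limma, against 3 (6%) at an unadjusted p below 0.05, near the 5.04% of autosomal genes. The difference was positive for 26 of the 50, with a median of 0.021, beside −0.032 over all 28740 genes tested.

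In synthesis, 9 of 11 genes were listed and 8 tested, of which 1 had an unadjusted p below 0.05. This was QDPR, which recycles the tetrahydrobiopterin cofactor of TH, with 246.2, 466.7 and 607.3 TPM as lowest, median and highest library. All females were above all males, with a difference of 0.69 (SE 0.251, unadjusted p = 0.0242, adjusted p = 0.925 by limma). SPR, the last enzyme of tetrahydrobiopterin synthesis, was 29.3 to 45.1 TPM with a median of 36.5, and PCBD1, another enzyme of cofactor recycling, 8.07 to 15.4 TPM with a median of 12.7.

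Apart from the locus named PNMT, the other enzymes of synthesis were low, as TH was. GCH1, which starts the synthesis of the TH cofactor, was 0.491 to 1.06 TPM, and DDC, which turns L-DOPA into dopamine, 0.351 to 1.16 TPM. DBH, which turns dopamine into noradrenaline, was 0.484 to 3.67 TPM with a median of 1.50. TPH1 and TPH2, the tryptophan hydroxylases of serotonin synthesis, were 1.37 to 3.06 TPM with a median of 2.09 and 0 to 1.30 TPM. The cofactor enzymes QDPR, SPR and PCBD1 were listed above all of these in each library.

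In transport, 6 of 7 genes were listed and 1 was tested. SLC29A4, a low-affinity plasma membrane monoamine transporter, was 8.42 to 17.8 TPM with a median of 15.0, and its difference of 0.55 (SE 0.271, unadjusted p = 0.0736 by limma) did not pass, although the sexes did not overlap. SLC6A2 and SLC6A4, the noradrenaline and serotonin transporters, were at most 0.154 and 0.129 TPM. SLC6A3, SLC18A1 and SLC18A2 were at 0 in at least 5 libraries.

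In breakdown, 7 of 7 genes were listed and 5 tested, with 0 at an unadjusted p below 0.05. Of the aldehyde dehydrogenases that take up the products of monoamine oxidases, ALDH9A1 was 31.1 to 66.0 TPM (median 46.6), ALDH2 32.4 to 51.8 TPM (median 42.9), ALDH3A2 5.24 to 14.7 TPM (median 13.1) and ALDH1A1 3.22 to 7.50 TPM (median 4.71). MAOA, at 59.0 TPM, had a higher median than any of these.

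Among receptor effectors 13 of 19 genes were listed and 11 tested, with 0 at an unadjusted p below 0.05. The highest medians were those of GNAS (985.2 TPM, stimulatory G protein), GNAO1 (196.6 TPM, inhibitory class) and PRKACA (184.0 TPM, catalytic subunit of protein kinase A). Among the kinases and phosphatases that act on or around DARPP-32, 15 of 19 were listed and 14 tested, and PPP3CA (486.4 TPM, calcineurin), CDK5R1 (295.1 TPM, activator of CDK5) and ARPP21 (256.5 TPM) had the highest medians. In this group PPP2CB was higher in females by 0.38 (SE 0.152, unadjusted p = 0.0344, adjusted p = 0.925 by limma). ARPP19, named on a locus of only 339 bp, was lower in females, with a difference of −1.23 (SE 0.394, unadjusted p = 0.0130, adjusted p = 0.925 by limma). Neither passed, and whether so short a locus stands for the whole ARPP19 gene was not tested.

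Among receptor regulators 11 of 15 genes were listed and tested, with 0 at an unadjusted p below 0.05. NCS1, a calcium sensor that binds D2 receptors, had a median of 627.9 TPM, GRK2, a kinase that desensitizes receptors, 346.7 TPM, and RGS4, 280.3 TPM. RGS4 was 91.2 TPM in female 4, the library with the lowest DRD1 and MAOA, and 135.2 to 457.4 TPM in the other 5.

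**Figure D4:**
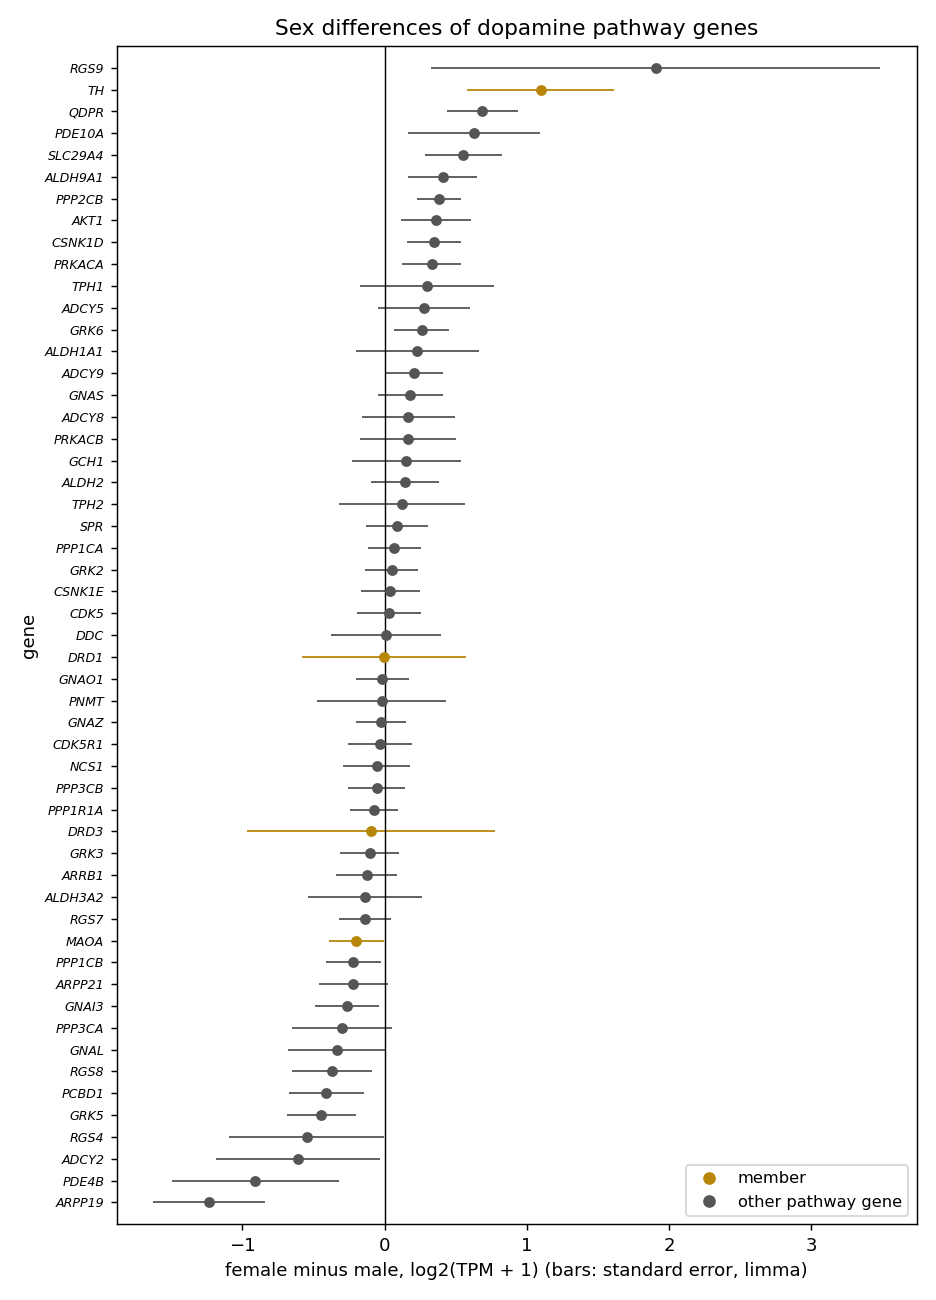
Difference between females and males for the 4 tested genes named at the outset (gold) and 49 of the tested genes of the wider list (grey), in log2(TPM + 1), with bars of 1 standard error from limma and genes ordered by difference. The difference was positive for 26 of the 49, and none of the 53 genes shown passed the adjusted threshold.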

How the data were processed

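The deposited files hold 1 table per animal with coverage (mean read depth, a signal), FPKM and TPM for each locus. The authors aligned reads with HISAT2 2.2.1 to the genome assembly TS_3.0, assembled transcripts with StringTie 2.2.1, merged them with the reference annotation and re-estimated the abundances per sample, with no pooling of animals. The deposited TPM and FPKM were estimated by StringTie, and the deposited coverage is not scaled for library size. No read counts were used here, so the DESeq2 test that the study applied to counts was not run.

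TPM was summed over rows of one gene ID and chromosome. The comparison of females with males used limma 3.58.1 (R 4.3.3) with empirical Bayes and a mean-variance trend on log2(TPM + 1), on the 28740 genes that reached 0.1 TPM in at least 3 libraries. The pseudocount understates changes of low genes such as TH, and for DRD3 the sign itself depended on it. Adjustment was by Benjamini-Hochberg within autosomes and within X, at 0.1. The male-only X segment and the start of chromosome 26 that the study removed, and unplaced contigs, were left out. The pipeline was tested on simulated data. Sums of genes were compared by exact permutation over the animals with Python 3.11.15. The ratio of MAOA to MAOB could not be formed, because MAOB was not listed by name.

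Genes and lists (monoamine pathway, and markers of striatal, midbrain dopamine, noradrenergic and serotonergic neurons, excitatory neurons, interneurons, astrocytes, oligodendrocytes, microglia, endothelium and blood) were chosen with earlier results of these data known. From the wider list, genes of synthesis, transport and breakdown were given by range, with values for those with a median of at least 1 TPM, and the 3 with the highest median in each other group. Animals are biological replicates, each with 1 library. Alternatives covered the pseudocount, the filter, scaling, FPKM in place of TPM, locus definition, the variance model, the adjustment, a covariate, pairing by animal number and leaving out animals. Depth per library is unknown, so no counting intervals are given. No sequence was printed, as no genome sequence was used here. Some genes of the lists are not reported here.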

Additional observations from a re-analysis of the deposited data

Results flagged for a closer look

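Each of the 60 genes above 0 in at least 1 library, among those listed at the outset and in the wider list, was screened for a single library far from the other 5, with all 6 libraries taken as 1 group (Dixon's test). The screen picked out 7 genes, or 11.7%, beside 18.7% of the 16237 named loci screened in the same way. Chance gives about 1 in 20 groups for normally distributed values, which TPM with zeros is not, and a gene above 0 in a single library, as 2 of the 7 were, is always picked out. Of the listed genes, TH was 3.71 TPM in female 3 against 0 to 1.12 TPM in the other libraries, and DRD3 was 7.24 TPM in male 1 against 0 to 2.68 TPM. In the wider list, the transporter genes SLC6A2 (0.154 TPM in female 4, at most 0.0472 TPM elsewhere) and SLC18A2 (1.62 TPM in female 1, 0 elsewhere) stood apart at low levels. PPP1CC, a catalytic subunit of protein phosphatase 1 named on a locus of 1611 bp, was 0.600 TPM in female 3 and 0 in the other 5. PDE4B, a cyclic AMP phosphodiesterase, was 82.1 TPM in male 1 against 9.04 to 21.1 TPM, and RGS7, a regulator of G protein signalling, was 103 TPM in male 5 against 71.0 to 81.8 TPM.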

How the results depend on the processing

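None of the 4 tested genes named at the outset passed the threshold under any of 20 alternatives, with adjusted p (limma) between 0.657 and 1 for MAOA, 0.793 and 1 for DRD1, 0.605 and 1 for TH and 0.890 and 1 for DRD3. TH stayed higher in females in 18 of 18 alternatives that gave it a value (0.43 to 5.10) and MAOA lower in 19 of 19 (−0.33 to −0.042), leaving aside the comparison without the 3 libraries highest in RGS9, which has a single female (−0.55). TH and DRD3 had no value with a filter of 1 TPM or without the 3 libraries highest in RGS9, and DRD3 had none where leaving out female 1, female 3 or male 1 took it below the filter. DRD1 became positive with quantile normalization (0.25), with FPKM (0.051) and without female 4 (0.55), male 1 (0.033) or male 4 (0.14). DRD3 became positive with pseudocounts of 0.1 (0.62) and 0.01 (1.68), with quantile normalization (0.058) and without female 4 (0.34). With single animals left out, DRD1 ranged from −0.39 to 0.55 and DRD3 from −0.61 to 0.34. The cause was not tested. In FPKM the medians were 14.8 for MAOA and 1.11 for DRD1, since 1 TPM was 0.235 to 0.272 FPKM.

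The number of autosomal genes past the threshold, 4, was 0 without the trend, 0 with the strandless share as covariate, 2 with the replicate block, 29 without the 3 libraries highest in RGS9, and 2 to 5 when single animals were left out (2 without female 1 or male 5). For the X chromosome, 1 became 2 with a filter of 1 TPM, median-ratio scaling, quantile normalization and rescaling over stranded loci, and 0 to 3 when single animals were left out (0 without female 3 or female 4, 3 without male 4). Of the wider list 1 gene passed without the 3 RGS9-high libraries (RGS4, whose lowest value was in female 4, the single female then left against 2 males, in a comparison chosen after the data were seen), and 0 when any single animal was left out.

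Leaving out single animals moved the medians to 57.8 to 60.2 TPM (MAOA), 4.02 to 4.83 (DRD1), 0.917 to 0.954 (TH), 0.0530 to 0.826 (DRD3) and 0.0873 to 0.0909 (DRD4). The D1-like sum difference of 0.587 TPM ranged from −0.724 (without female 3, exact permutation p = 0.8) to 2.21. That of DRD3 and DRD4, −1.11, ranged from −2.32 to 1.28 (without male 1, exact permutation p = 0.2), and that of MAOA from −12.4 to −1.72. With all animals and median-ratio scaling the MAOA difference was −8.09, with an exact permutation p of 0.1, the smallest possible.

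Animal numbers shared by the sexes (1 and 4) gave correlations of 0.00098 and 0.038, within the −0.059 to 0.063 of pairs with different numbers. So few pairs cannot show whether a shared number means shared handling, which the labels do not give. With the replicate block the differences were −0.27 for MAOA, −0.57 for DRD1, −1.08 for DRD3 and 0.53 for TH. Coverage was below 5 reads per base in all 6 libraries for TH and DRD4, in 5 for DRD3 and in 4 for DRD1, which limits these values.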
